A study of Mus musculus with 12 samples.

Results

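*Angptl4* encodes a secreted protein that blocks lipoprotein lipase, and it is the central gene of a set of 8 described here together with *Pdk4*, *Plin2*, *Ppara*, *Ppard*, *Pparg*, *Rxra* and *Ppargc1a*. These are 8 of the 24824 genes in the expression table and were picked by symbol. The set was chosen by the rise of *Angptl4* in group D over group A, so the difference D vs. A and its interaction with copper are described for the 8 genes without a test, and tests on them are limited to the other comparisons. For *Angptl4* itself, B vs. A and C vs. D share a group with that difference and are also given without a test. The cells were AML12, a line of immortalized mouse hepatocytes labelled as wild type, grown for 24 h in each group. Group A had standard growth medium and nothing added. Group B received 300 μM CuCl2 with 40 nM elesclomol, an ionophore that carries copper into cells (Cu/ES). In group C the same Cu/ES was combined with taurocholic acid (TCA), a conjugated bile acid, at 1000 μM, and in group D the cells had only TCA, at the same dose. Each group had 3 libraries of polyadenylated RNA, and since nothing in the labels assigns them to separate cultures, p-values measure the spread between these libraries, which may be technical.

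Peroxisome proliferator-activated receptors (PPARs) are nuclear receptors that pair with retinoid X receptors such as RXRA and switch on genes of fatty acid uptake, storage and oxidation when a lipid ligand binds. In liver, PPARA is known for the response to fasting, PPARD is widely expressed, PPARG is best known from fat cells, and PPARGC1A is a coactivator of all of them. *Angptl4*, *Pdk4* (a kinase that shuts off pyruvate dehydrogenase) and *Plin2* (a coat protein of lipid droplets) are among their most used target genes. *Angptl4* is also known to respond to hypoxia-inducible factors (HIF) and to glucocorticoids.

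Sequence upstream of the start site is shown for the genes whose values set the pattern below, namely *Pdk4*, which appeared under Cu/ES, *Plin2*, a target that stayed level under TCA, and *Ppard*, the receptor with nearly all of the PPAR reads. They are the 250 bases before the start in RefSeq's annotation of GRCm38.p6, written 5′ to 3′ on the gene's strand, and capitals mark the PPAR site letters AGGTCA or the core of a hypoxia element (ACGTG or GCGTG), on either strand. The regions are chr6:5496279-5496528 (minus strand), chr4:86670060-86670309 (minus strand) and chr17:28232504-28232753 (plus strand).
Pdk4: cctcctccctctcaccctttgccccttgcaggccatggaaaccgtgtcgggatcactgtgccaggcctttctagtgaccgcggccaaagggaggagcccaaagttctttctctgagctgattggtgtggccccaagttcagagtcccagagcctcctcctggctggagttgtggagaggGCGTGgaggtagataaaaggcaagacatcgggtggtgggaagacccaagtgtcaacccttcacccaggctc
Plin2: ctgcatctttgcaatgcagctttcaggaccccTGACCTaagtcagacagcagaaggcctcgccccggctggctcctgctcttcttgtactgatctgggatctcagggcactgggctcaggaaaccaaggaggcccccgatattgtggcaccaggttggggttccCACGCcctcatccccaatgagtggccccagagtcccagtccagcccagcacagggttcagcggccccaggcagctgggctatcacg
Ppard: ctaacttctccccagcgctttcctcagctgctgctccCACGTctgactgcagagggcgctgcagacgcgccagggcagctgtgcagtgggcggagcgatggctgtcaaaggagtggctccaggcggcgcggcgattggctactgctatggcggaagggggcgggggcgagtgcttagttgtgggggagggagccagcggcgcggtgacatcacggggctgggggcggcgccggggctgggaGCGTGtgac
Counted from the start site, *Plin2* held AGGTCA on its other strand at position -218 and a hypoxia core at -86, *Pdk4* held a hypoxia core at -71, and *Ppard* held hypoxia cores at -213 and -9. None of the 3 windows held AGGTCA repeated after 1 base, the arrangement known for PPAR and RXR pairs, nor the core of a heat shock element (GAANNTTC) or of a metal response element (TGCACNC or TGCGCNC), both added to the search after the values had been seen. Of 32851 upstream windows of the same length, 14% held AGGTCA, 0.0335% the repeat, 38.6% the hypoxia core, 6.69% the heat shock core and 21.4% the metal response core. A match is a run of letters and not a shown binding site, and no entry for *Angptl4* was used.

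Expression was given as FPKM, the fragments counted for a gene, set against its length and the total of its library. Its values step by whole reads, which gave library totals of 38298869 to 39108532 in group A, 30773762 to 32002334 in group B, 29115020 to 34912759 in group C and 39444433 to 39782155 in group D. Groups were compared on log2(FPKM + 1) with limma in one fit over 12 libraries. Tests covered the 10615 genes whose FPKM averaged 1 or more over these libraries, and a gene passed at an adjusted p under 0.05. On this scale a fold change of a low gene is understated. The median of all genes tested was -1.10 in group B vs. A and -1.13 in group C vs. D. Scaling by the median ratio of the libraries moved these to -0.03 and -0.11. Both scales are therefore given in these comparisons for the tested genes of the set and for counts over the lists of targets and coregulators. Values of single genes outside the set are in part on the deposited scale alone. In bulk RNA, fewer cells expressing a gene and less of its RNA per cell cannot be told apart.

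The label of the cells as hepatocytes was set against markers. *Alb*, *Fgb* and *Hnf4a* stayed under 0.1 FPKM in every library, and the summed level of the 8 hepatocyte markers in the table (596 to 649 FPKM in A, 697 to 717 in D, 236 to 287 in B and 172 to 209 in C) came nearly wholly from the keratins *Krt8* and *Krt18*. *Apoa1* and *Trf* of the same list went the other way. Their means were 0.00863 and 0.00741 in A, 0 in D, 1.86 and 0.718 in B, and 1.11 and 0.537 in C. Mesenchymal markers summed to 2119 to 2339 FPKM in A, 1814 to 1936 in D, 298 to 354 in B and 154 to 196 in C, mostly *Vim*. Macrophage markers, of which *Adgre1*, *Ptprc* and *Lyz2* stayed under 0.1, ran from 72.5 to 102.5 in A, 25.5 to 37.0 in D, 24.6 to 29.1 in B and 24.1 to 36.9 in C through *Cd68*. Adipocyte markers never exceeded 3.39 in sum and *Plin1* stayed under 0.1. Endothelial markers summed to at most 1.30 in A and D, 10.5 to 15.2 in B and 23.9 to 26.9 in C, and cholangiocyte markers to 920 to 1004 in A, 743 to 790 in D, 1240 to 1404 in B and 735 to 950.5 in C. The cholangiocyte sum came mostly from *Spp1*, at a mean of 673 in A and 1190 in B. From A to B, *Sox9* also went up (10.6 to 50.9), whereas *Krt19* (268 to 77.3) and *Epcam* (0.537 to 0.0715) went down. The part of these shifts in the results below was not tested.

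*Angptl4* was highest with TCA alone and lowest in both groups with copper. Its FPKM was 12.7, 17.2 and 13.8 in the control libraries, and 54.4, 63.6 and 60.0 with TCA alone. It was 4.10, 4.37 and 4.35 with Cu/ES and 3.61, 3.76 and 2.90 with Cu/ES and TCA. No library of one group overlapped with a library of another. Means were 14.6 ± 2.35 in A, 59.3 ± 4.64 in D, 4.27 ± 0.154 in B and 3.42 ± 0.463 in C (SD, n = 3), resting on 3232, 13406, 768 and 628 reads summed over each group. The mean of D was 4.07 times that of A, a log2 difference of 1.96 that was the largest among all genes tested in D vs. A, ahead of the transcription factors *Egr3* (1.33) and *Atf5* (1.33) and the protease inhibitor *Serpinb2* (1.22). This difference chose the gene and is given as a description.

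**Figure D1:**
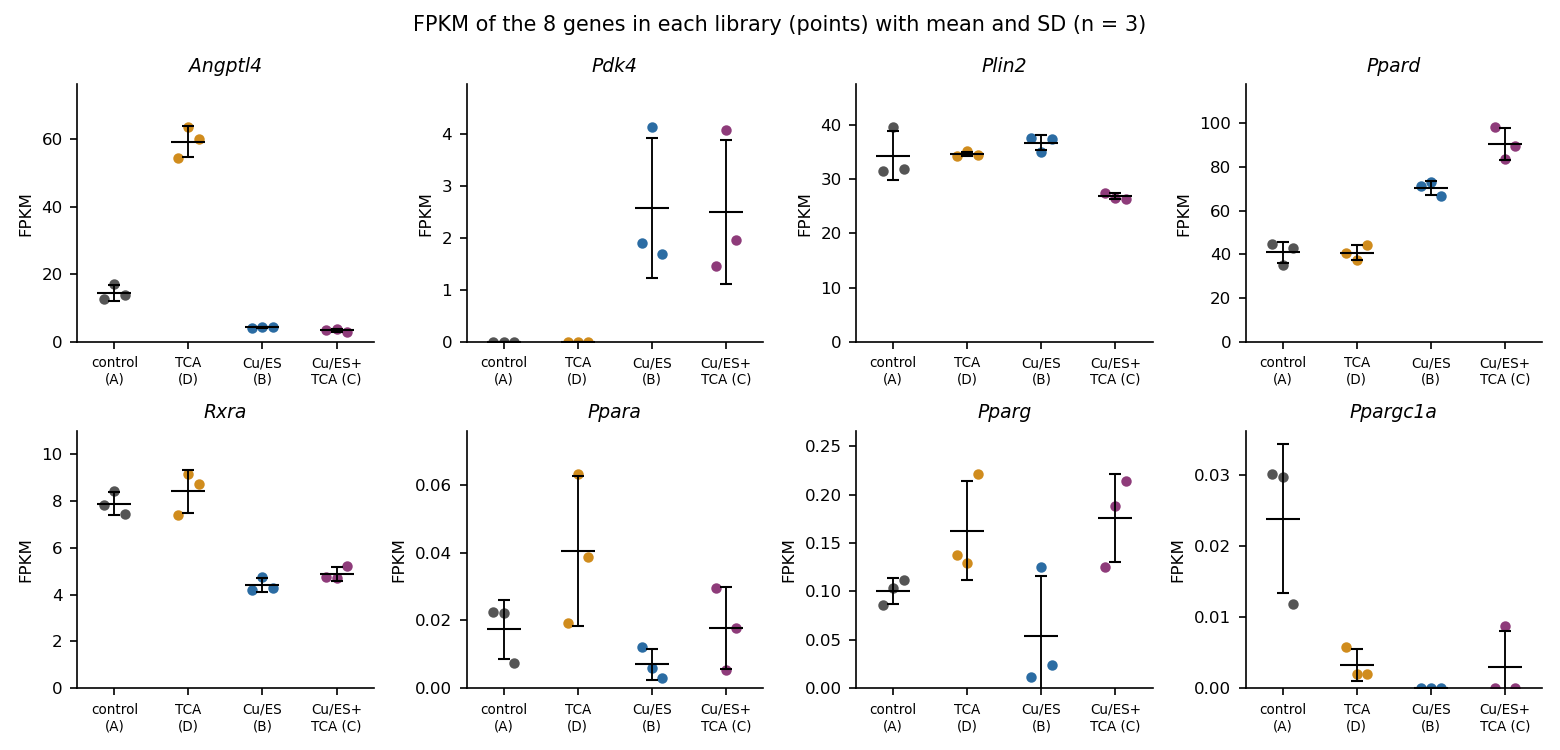
FPKM (vertical axes, linear, each panel its own range) of the 8 genes in control cells (A), with TCA (D), with Cu/ES (B) and with both (C). Points are libraries and bars are the mean and SD (n = 3, cut off at 0). *Angptl4* stands at 54.4 to 63.6 in group D and at 2.90 to 4.37 in groups B and C, and *Pdk4* has reads in groups B and C alone.

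With Cu/ES present, TCA brought no such rise. Group C lay below group B for *Angptl4* by 0.26 on the log2 scale (SE 0.11), a difference that missed the threshold (adjusted p = 0.0694, limma), and the ratio of means was 0.801. The highest library of C, at 3.76, was below the lowest of B, at 4.10. The call depended on the setting. It passed with a pseudocount of 0.1 (-0.32, adjusted p = 0.0463), without library A2 (-0.26, adjusted p = 0.0353), without library C2 (-0.31, adjusted p = 0.0387) and in the fit blocked on replicate numbers (-0.26, adjusted p = 0.0358), whereas the adjusted p over all alternatives ran from 0.0353 to 0.342. The value was below 0 in each of the 20 alternatives, between -0.33 and -0.17. Subtracting the effect of TCA without copper from that with copper gave -2.22 (SE 0.15), which was not tested because group D chose the gene.

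With Cu/ES and no TCA, *Angptl4* stood at 0.293 of the control mean, a log2 difference of -1.55 (SE 0.11). Most genes fell here, and 72% of all genes tested passed as lower and 20.1% as higher. Against the median of all genes *Angptl4* was lower by a difference of -0.45, and with median-ratio scaling the difference was -0.42. Group C vs. D gave -3.77 on the deposited scale and -2.65 with median-ratio scaling, among 71.5% of genes lower and 20.9% higher. The ratio of means in C vs. D was 0.0577.

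**Figure D2:**
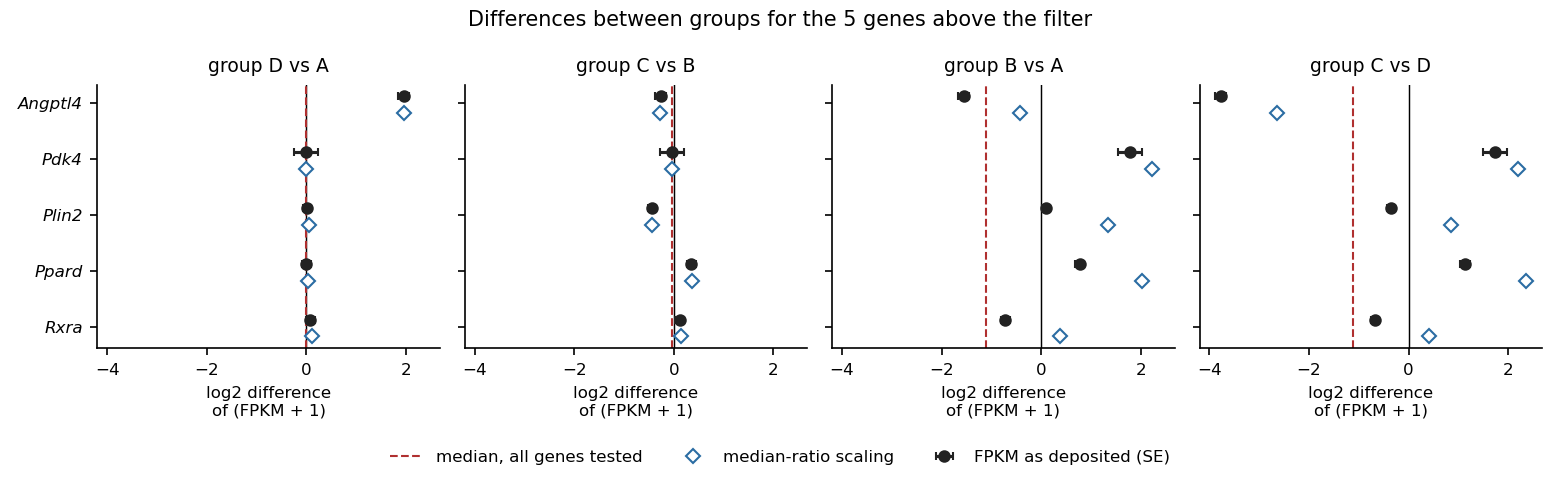
Log2 differences of FPKM + 1 (horizontal axes) for the 5 genes of the set above the filter, in group D vs. A, C vs. B, B vs. A and C vs. D. Filled circles are the deposited FPKM with the SE of the fit, open diamonds the same after median-ratio scaling, and the dashed line is the median of all genes tested. In D vs. A, *Angptl4* stands at 1.96 and the other 4 at 0.08 or below. In B vs. A and C vs. D the diamonds lie to the right of the circles.

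*Pdk4*, the target most often read beside *Angptl4*, did not share its pattern. It had 0 reads in all 3 libraries of group A and all 3 of group D, where 3 reads would have been at most 0.0227 FPKM. With Cu/ES it was at 1.91, 4.14 and 1.70 FPKM (209, 457 and 181 reads), and with Cu/ES and TCA at 1.47, 4.08 and 1.97 (148, 492 and 220 reads). The libraries numbered 2 were the highest in both groups. Group B was at least 113.9-fold higher than A and group C at least 113.9-fold higher than D, against the level of 3 reads in a library. The fitted log2 differences were 1.78 in B vs. A and 1.74 in C vs. D, given without a test because the gene cleared the filter through groups B and C only. Adding TCA to Cu/ES gave -0.04 (SE 0.24, adjusted p = 0.921), a difference small beside the spread. No other RefSeq gene overlaps *Pdk4*.

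*Plin2* stayed level under TCA alone. Its FPKM was 31.6, 39.6 and 31.9 in A and 34.4, 35.1 and 34.5 in D, so that D lay within the range of A. It was 37.6, 35.1 and 37.5 in B and 27.5, 26.6 and 26.4 in C. Group C was below every other library, and C vs. B was -0.44 (SE 0.08, adjusted p = 5.57e-04). B vs. A was 0.10 (adjusted p = 0.236) on the deposited scale and 1.35 (adjusted p = 9.72e-10) with median-ratio scaling, and it was -0.26 (adjusted p = 0.0107) when the values were rescaled to TPM, which sums to one total in each library. C vs. D turned likewise, from -0.36 (adjusted p = 6.30e-04) to 0.86 (adjusted p = 1.23e-07) with median-ratio scaling. The direction of Cu/ES on *Plin2* thus depended on the scale, and that of TCA with Cu/ES did not. RefSeq places the pseudogene *Gm12551* over *Plin2*, and reads of the pair may be shared.

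Of the receptors, *Ppard* carried the signal and rose with Cu/ES. It had 44.6, 35.4 and 42.7 FPKM in A, 40.6, 37.4 and 44.2 in D, 71.3, 73.2 and 66.9 in B, and 98.2, 83.8 and 89.6 in C. Groups A and D overlapped, and B and C stood above them and apart. The rise was 0.78 in B vs. A (adjusted p = 1.57e-06), 0.35 in C vs. B (adjusted p = 0.00676) and 1.13 in C vs. D (adjusted p = 2.18e-08), with 2.04 and 2.37 for the comparisons of copper after median-ratio scaling. The order of *Ppard* over the groups was C, then B, then A and D together, whereas that of *Angptl4* was D, A, B and C. A noncoding RNA, *1810013A23Rik*, overlaps the gene in RefSeq and reached a mean of at most 0.244 FPKM.

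*Rxra*, the partner receptor, was at 7.81, 8.42 and 7.44 FPKM in A and 7.38, 9.15 and 8.71 in D, which overlapped. In B it was at 4.20, 4.73 and 4.27 and in C at 4.73, 4.69 and 5.20, which also overlapped (C vs. B 0.12, adjusted p = 0.293). B vs. A was -0.72 (adjusted p = 2.27e-06) and C vs. D -0.68 (adjusted p = 4.23e-06), and both changed sign with median-ratio scaling, to 0.38 (adjusted p = 7.93e-04) and 0.41 (adjusted p = 4.06e-04). Its close relative *Rxrb* fell by 2.24 in B vs. A (adjusted p = 1.08e-12) and by 1.06 with median-ratio scaling (adjusted p = 9.80e-09), from 28.9 FPKM in A to 5.34 in B. *Rxrb* rose by 0.23 in C vs. B (adjusted p = 0.0183), and D vs. A was -0.06 (adjusted p = 0.582).

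The other 3 genes were near the limit of detection and below the filter. *Ppara* had 9, 9 and 3 reads in A, 8, 26 and 16 in D, 4, 2 and 1 in B, and 9, 2 and 6 in C. *Pparg* had 9, 11 and 12 reads in A, 15, 14 and 24 in D, 1, 11 and 2 in B, and 10, 18 and 19 in C. *Ppargc1a* had 15, 15 and 6 reads in A, 3, 1 and 1 in D, none in B, and 0, 4 and 0 in C. In FPKM the highest library was 0.0632 for *Ppara*, 0.221 for *Pparg* and 0.0301 for *Ppargc1a*, against 98.2 for *Ppard*. A test of the reads with limma-voom and no filter, added after the values were seen, gave a fall of *Ppargc1a* in B vs. A (adjusted p = 8.80e-05, at least 3.18-fold lower), where 45.5% of 22210 genes were lower. It also gave a rise of *Pparg* in C vs. B (log2 difference 2.14, adjusted p = 0.0304), where 11.5% were higher, though the read counts of B and C overlapped. The other 7 tests of these 3 genes in B vs. A, C vs. B and C vs. D did not pass, with adjusted p from 0.0887 to 0.827.

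Counted over the set, 5 of 8 genes were above the filter. In C vs. B 1 of them passed as higher (*Ppard*) and 1 as lower (*Plin2*), beside 20.4% and 23.6% of all genes tested. *Angptl4* and *Pdk4* are left out of the counts in B vs. A and C vs. D for the reasons above. In B vs. A *Ppard* passed as higher and *Rxra* as lower, beside 20.1% and 72% of all genes tested. In C vs. D *Ppard* passed as higher and *Plin2* and *Rxra* as lower, beside 20.9% and 71.5%. With median-ratio scaling *Plin2*, *Ppard* and *Rxra* were higher in both comparisons, where 42.8% of all genes were higher and 45% lower in B vs. A, and 42% and 46.8% in C vs. D.

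Whether other PPAR targets rose with *Angptl4* under TCA alone was examined in 76 listed targets outside the set, of which 70 were in the table and 44 passed the filter. In D vs. A, 6 rose and 7 fell, beside 10.5% of all genes higher and 11.5% lower, and the median of the 44 was -0.08 against -0.01 for all genes. Those that rose were *Acot2*, a mitochondrial acyl-CoA thioesterase (0.58, adjusted p = 0.00724), *Fgf21*, a fasting hormone (0.56, adjusted p = 0.0137), the fatty acid activating *Acsl5* (0.39, adjusted p = 0.00136) and *Acsl3* (0.30, adjusted p = 0.0435), and the desaturases *Scd2* (0.34, adjusted p = 0.0387) and *Fads2* (0.32, adjusted p = 0.0172). The call of *Scd2* was lost without any single library of A or D. The largest of these, *Acot2*, went from a mean of 4.78 to 7.69 FPKM and shares much of its sequence with *Acot1*, so its reads are uncertain. *Fgf21* went from 2.49 ± 0.675 to 4.12 ± 0.724. None of the 6 reached the log2 difference of 1 that *Angptl4* exceeded. Of all 10615 genes tested, only 7 passed as higher with a log2 difference above 1, so few targets could be looked for there.

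*Txnip*, which restrains glucose uptake, had the largest change of the 44 targets under TCA alone and dropped from 68.9 ± 12.8 to 31.1 ± 5.29 FPKM (-1.12, adjusted p = 2.34e-04). The phospholipid transfer protein *Pltp* (-0.73, adjusted p = 0.0363), the fatty acid carrier *Fabp5* (-0.69, adjusted p = 0.00320), the glycerol channel *Aqp3* (-0.43, adjusted p = 0.0161) and *Acsl1*, an acyl-CoA synthetase (-0.32, adjusted p = 0.0243), followed. *Slc27a1* and *Acadvl* were the other two. With median-ratio scaling the calls of *Acadvl*, *Acsl1*, *Aqp3* and *Pltp* (adjusted p = 0.180, 0.107, 0.0584 and 0.0944) and of *Acsl3* among the rises (0.0549) were lost. The counts were small and moved with single libraries, to 3 higher and 4 lower without A1, A3 or D1 and to 2 higher and 4 lower without D3, and with median-ratio scaling 6 were higher and 3 lower. *Ehhadh* and *Fabp1*, classical targets of PPARA in liver named after their values were seen, had no reads in groups A, B and D and means of 0.00317 and 0.0187 FPKM in C.

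By role, the mitochondrial group of 12 tested targets had 1 gene higher and 1 lower in D vs. A, the 8 peroxisomal ones none, the 3 of lipid droplets none, the 11 of fatty acid release and uptake 2 higher and 4 lower, and the 10 of glucose use and lipogenesis 3 higher and 2 lower. The median of each group lay between -0.18 and 0.16.

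**Figure D3:**
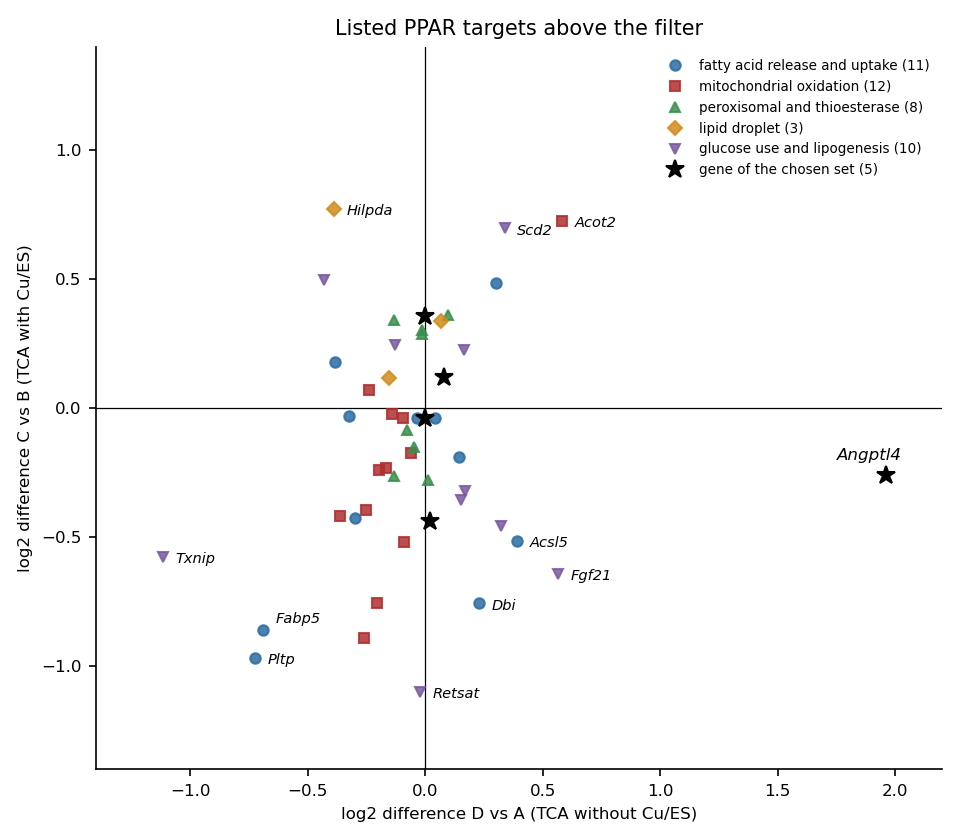
Log2 difference under TCA without Cu/ES (D vs. A, horizontal) and with Cu/ES (C vs. B, vertical) for the 44 listed PPAR targets above the filter, by role, and for 5 genes of the chosen set (stars). *Angptl4* stands alone at 1.96 on the horizontal axis, where the next highest target, *Acot2*, is at 0.58, and on the vertical axis it is at -0.26.

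The same list was read for TCA added to Cu/ES. In C vs. B, 8 of the 44 targets rose and 19 fell, beside 20.4% and 23.6% of all genes tested, with a median of -0.16 against -0.03 for all genes. *Retsat*, a retinol saturase, fell from 1.97 to 0.382 FPKM (-1.10, adjusted p = 9.4e-05). *Pltp* (-0.97), *Acadvl*, the first enzyme of very long chain oxidation (-0.89), *Fabp5* (-0.86) and *Dbi*, an acyl-CoA binding protein (-0.76), were next. *Hilpda*, an inhibitor of lipid droplet lipolysis, rose most (0.77, adjusted p = 0.00630), followed by *Acot2* (0.73), *Scd2* (0.70), *Aqp3* (0.50) and *Acsl3* (0.49). Of the 12 mitochondrial targets 6 fell and 1 rose, and of the 8 peroxisomal ones 2 fell and 2 rose.

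By the interaction term, the effect of TCA differed with the presence of Cu/ES for 15 of the 44 targets, beside 37.5% of all genes. The share among the targets was thus not above that over all genes. *Fgf21* rose without copper and fell with it, from 8.82 in B to 5.28 FPKM in C, a difference of the effects of -1.21 (adjusted p = 5.77e-04). *Acsl5* gave -0.91 (adjusted p = 2.46e-05) and *Fads2* -0.78 (adjusted p = 3.50e-04) in the same way. *Aqp3* fell without copper and rose with it (0.93, adjusted p = 6.99e-04). *Acot2*, *Scd2* and *Acsl3* passed as higher in both settings, and *Txnip*, *Pltp*, *Fabp5*, *Slc27a1* and *Acadvl* as lower in both. *Fgf21*, *Acsl5*, *Fads2* and *Aqp3* were named for differences that enter the interaction term, so its p-values for them are not independent of that choice.

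Cu/ES itself lowered most of the list, as it lowered most genes. In B vs. A 38 of the 44 fell and 4 rose, beside 72% and 20.1% of all genes, with a median of -1.76 against -1.10, and in C vs. D 36 fell and 4 rose, beside 71.5% and 20.9%, with a median of -1.79 against -1.13. All 12 mitochondrial targets fell in both comparisons, with medians of -2.12 and -2.13. *Cpt2*, the inner membrane carnitine palmitoyltransferase, went from 15.0 FPKM in A to 0.153 in B (-3.80), and the acyl-CoA dehydrogenases *Acads* (27.0 to 1.24, -3.65) and *Acadl* (84.8 to 6.32, -3.56) were next. In C vs. D *Acadl* (-4.11), *Acads* (-3.76) and the lipoprotein receptor *Vldlr* (-3.64) fell most. *Fgf21* (1.51), the malic enzyme *Me1* (1.21) and the glycerol kinase *Gk* (0.97) rose most in B vs. A, and *Gk* (1.34) and the carrier *Fabp4* (0.75) rose in C vs. D. With median-ratio scaling 13 of the 44 were higher and 26 lower in B vs. A, beside 42.8% and 45% of all genes, and 13 and 28 in C vs. D, beside 42% and 46.8%. Of the mitochondrial 12, 1 was then higher and 9 lower in B vs. A, and 1 and 10 in C vs. D.

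Of the 3 tested relatives of *Angptl4*, 0 passed as higher under TCA alone, beside 10.5% of all genes, so few rises could be looked for. *Angptl2* had 25.7 ± 1.69 FPKM in A, 22.4 ± 1.48 in D, 0.359 ± 0.126 in B and 0.339 ± 0.0339 in C, and *Angptl6* had 9.09 ± 3.44, 8.998 ± 2.99, 0.321 ± 0.0396 and 1.16 ± 0.0931. Neither passed in D vs. A (adjusted p = 0.15 and 1). Both fell in B vs. A (-4.30 and -2.87, and -3.47 and -2.11 with median-ratio scaling), beside 72% of all genes lower, or 45% with that scaling. *Angptl6* was higher in C than in B (0.71, adjusted p = 0.0311), a call kept in 10 of 19 alternatives and lost without any single library of B or C. *Angptl8*, which also acts on lipoprotein lipase, had 0 in every library of A and D and means of 4.01 ± 0.480 in B and 4.12 ± 0.477 in C. It cleared the filter through groups B and C only, so it could not be called in D vs. A. RefSeq places *Angptl8* over *Dock6*, and whether the counting used strand is not given in the sources used here, so reads of the pair may be shared. *Dock6* itself went from 4.92 FPKM in A to 1.64 in B. *Angptl7* was near 0 and *Angptl1* was not analysed here.

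The other pyruvate dehydrogenase kinases fell in B vs. A, beside 72% of all genes tested, or 45% with median-ratio scaling. *Pdk4*, which cleared the filter through groups B and C only, went the other way. *Pdk1* was at 54.0 ± 4.13 FPKM in A, 33.2 ± 4.41 in D, 0.396 ± 0.145 in B and 0.556 ± 0.0653 in C. It fell in B vs. A (-5.30, and -4.44 with median-ratio scaling) and in D vs. A (-0.69, adjusted p = 8.93e-04). *Pdk2* (-0.43, adjusted p = 0.00227) and *Pdk3* (-0.31, adjusted p = 0.0177) also fell under TCA alone, beside 11.5% of all genes tested. The call of *Pdk3* was lost with median-ratio scaling (adjusted p = 0.0771). In B vs. A *Pdk2* went from 2.99 to 0.00800 FPKM (-1.98, and -1.50 with median-ratio scaling). *Pdk3* went from 6.36 to 1.06 FPKM (-1.84, and -0.93 with that scaling). Of the phosphatases that reverse these kinases, *Pdp1* fell by 0.92 in B vs. A (adjusted p = 2.26e-06; 0.04 with median-ratio scaling, adjusted p = 0.693), and *Pdp2* rose by 0.35 (adjusted p = 0.00402). Both rose in C vs. B (0.31 and 0.44) and neither passed in D vs. A. Among droplet coats, *Plin3* went from 91.5 ± 4.30 FPKM in A to 68.6 ± 1.04 in D (-0.41, adjusted p = 0.0261, lost without any single library of A or D), 9.37 ± 1.51 in B and 12.6 ± 2.26 in C, while *Plin1*, *Plin4* and *Plin5* had means under 0.05 in each group.

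**Figure D4:**
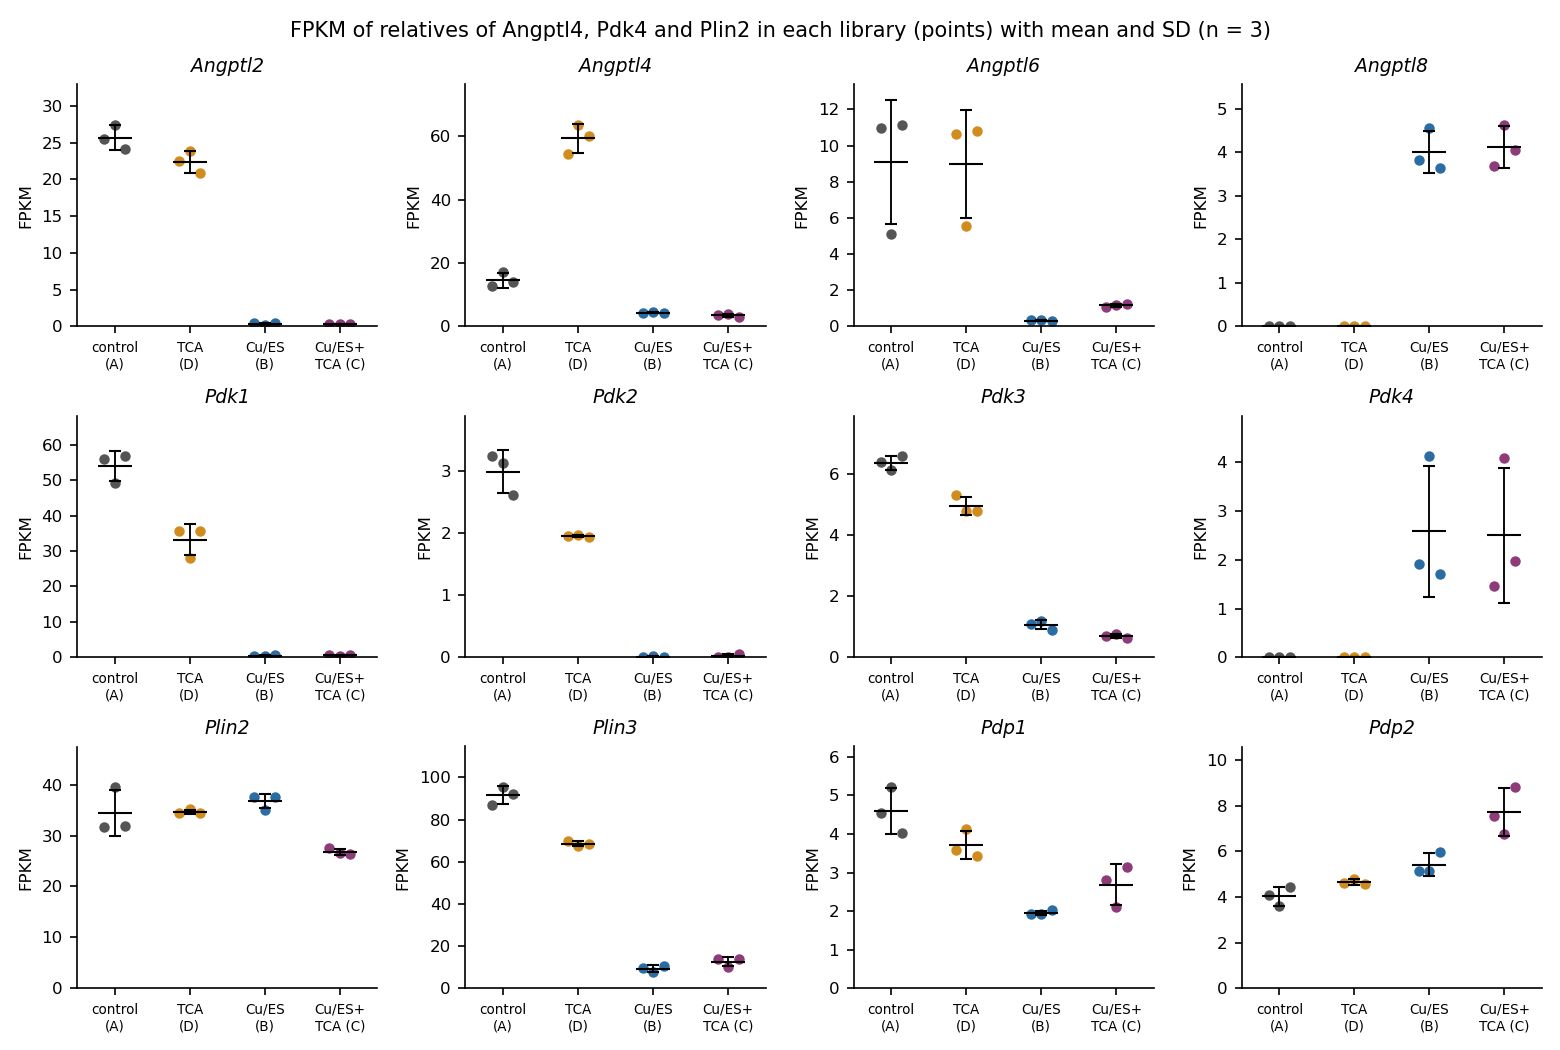
FPKM (vertical axes, linear, each panel its own range) of relatives of *Angptl4*, *Pdk4* and *Plin2* above the filter, with phosphatases of pyruvate dehydrogenase. Points are libraries, bars the mean and SD (n = 3). *Angptl4* is the panel with its peak in group D, *Pdk4* and *Angptl8* start from 0 in A and D, and *Pdk1* falls from 54.0 in A to 33.2 in D and under 1 in B and C.

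Of the listed PPAR coregulators, 12 outside the set were tested. In D vs. A *Pprc1*, a relative of *Ppargc1a*, rose from 6.73 to 10.6 FPKM (0.58, adjusted p = 0.00371) and *Lpin1*, a phosphatase that also acts as a coactivator, fell from 12.3 to 8.53 (-0.47, adjusted p = 0.0368, and 0.0730 with median-ratio scaling). In C vs. B 2 rose and 4 fell, beside 20.4% and 23.6% of all genes, among them *Med1* (0.64) and *Lpin1* (0.56) upward and the corepressor *Ncor1* (-0.35) downward. In B vs. A 8 fell and 2 rose, beside 72% and 20.1% of all genes, with the corepressor *Ncor1* down from 37.3 to 4.63 FPKM (-2.77) and the deacetylase *Sirt1* up from 5.92 to 48.8 (2.84, adjusted p = 6.65e-13, and 3.999 with median-ratio scaling). With that scaling 6 fell and 5 rose, beside 45% and 42.8%. *Pprc1* fell in C vs. B (-0.44, adjusted p = 0.00762).

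Lists of other known inputs to *Angptl4* were set beside it. Of 10 tested HIF targets none rose and 6 fell in D vs. A, beside 10.5% and 11.5% of all genes, with a median of -0.66 against -0.01. *Egln3*, a HIF hydroxylase, was at 74.1, 45.6 and 77.9 FPKM in A and 37.3, 26.5 and 41.1 in D (-0.88, adjusted p = 0.00869), and *Bnip3*, a mitophagy receptor, fell by 0.76 (adjusted p = 0.00292). *Ankrd37* gave -0.80 (adjusted p = 0.0534). *Egln3* and *Bnip3* were lowest in libraries A2 and D2 within their groups, the same libraries in which *Angptl4* was highest. Over all genes tested, A2 and D2 deviated from their group means alike (r = 0.579), the highest r of any pair of libraries compared. In group B, *Egln3*, *Bnip3* and *Angptl4* were all highest in library B2. In group C, *Angptl4* and *Egln3* were highest in C2 and *Bnip3* in C3. These orders within groups were not tested. With Cu/ES, 4 of the 10 HIF targets rose in C vs. B and none fell, beside 20.4% and 23.6% of all genes. Of 7 tested glucocorticoid targets 1 rose in D vs. A, the kinase *Sgk1* (12.8 to 18.6 FPKM, 0.50, adjusted p = 8.34e-04), and none fell, and in C vs. B 2 rose and 2 fell, beside the same shares of all genes as for the HIF targets. *Tsc22d3* was at 0.31 in D vs. A (adjusted p = 0.0776) and *Nr3c1*, the receptor, at -0.30 (adjusted p = 0.0587). *Sgk1* then fell in C vs. B by 0.60 (adjusted p = 4.08e-05). For FXR, the receptor of bile acids, 1 of 8 listed genes could be tested, the receptor *Nr1h4* itself, at 0.23 in D vs. A (adjusted p = 0.140) and 0.42 in C vs. B (adjusted p = 0.00586). Its target *Nr0b2*, named after its values were seen, had no reads in A, B and D and a mean of 0.0676 ± 0.0970 FPKM in C. *Abcb11*, from the same list, had means of 0.0969 in A, 0.158 in D, 0.437 in B and 0.700 in C. *Abcb4* had 0.0311, 0.0483, 0.0506 and 0.152 in that order. *Slc51b* had a mean of 0.0427 in B and *Fgf15* of 0.00633 in C, with 0 elsewhere. These genes were below the filter, were named after their values were seen, and were not tested.

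The genes whose levels over the 12 libraries were most like those of *Angptl4*, by Pearson's r on log2(FPKM + 1) among 6877 genes with a mean of at least 5, were *Zyx*, a focal adhesion protein (0.993), and *Bysl*, a factor of ribosome assembly (0.993). *Cluh* (0.983), the arginine methyltransferase *Prmt5* (0.983), the helicase *Dhx33* (0.981), *Pitpnb* (0.979), *Gpatch4* (0.978) and *Ssr2* (0.978) followed. The 12 points share 4 group means, libraries and depth, and the r is a description. *Zyx* ran from 33.6 in A to 49.4 in D and 22.4 and 22.5 in B and C, the same order over A, D and the copper groups with a smaller range, and the D vs. A difference of these 8 genes lay between 0.25 and 0.87. None of them was a listed PPAR target, but only 44 of the 10615 genes tested were, so their absence among 8 genes says little. Within the set, *Rxra* had an r of 0.887 to *Angptl4* (rank 1225), *Plin2* 0.399 and *Ppard* -0.861.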

How the data were processed

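AML12 RNA was read as FPKM in 4 groups of 3 libraries. The authors deposited one FPKM column per library, made with the VAHTS Universal V6 kit on an Illumina NovaSeq. The submitters' processing notes name fastp, HISAT2, HTSeq and GRCm39 without versions or annotation, and the study states DESeq2 for its comparisons. Since FPKM are not counts, log2(FPKM + 1) was fitted with limma 3.58.1 in R 4.3.3 (trend, empirical Bayes, 4 group terms, 8 residual degrees of freedom), for genes averaging 1 FPKM or more. Two-sided p-values were adjusted by Benjamini-Hochberg over 10615 genes. The study also used an absolute log2 fold change above 1.

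Reads and totals were recovered from the spacing of values, whole within 0.02 reads for 22210 of 22212 genes (99.991%). They cover counting error only.

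Members and lists (PPAR targets and coregulators, receptor partners, families, HIF, FXR and glucocorticoid targets, markers) were chosen with earlier results of these data known. Named were the 8 genes, their families, partners and coregulators, the 5 largest rises and falls among passing targets in D vs. A and C vs. B (3 in B vs. A and C vs. D), the 3 most changed of each input list, and the 8 genes most like *Angptl4*. Genes named for their values are said to be so. A few genes that this rule names are not reported here.

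Alternatives were a pseudocount of 0.1, no filter or a minimum of 5, TPM and median-ratio scaling, a replicate block, limma-voom on recovered reads and each library left out. Limma-voom with no filter was added after seeing the data. Steps were tested on simulated data. Python 3.11.15 with pandas 2.3.3, numpy 2.4.6 and matplotlib 3.10.9 made tables and plots. Sequences came from RefSeq's GRCm38.p6, and no coordinates were carried between builds.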

Additional observations from a re-analysis of the deposited data

Results flagged for a closer look

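The effect of TCA in the presence of Cu/ES minus its effect in the absence of Cu/ES passed the interaction test for 37.5% of all genes tested. It passed for 22 of the genes named for their difference in D vs. A or C vs. B, 9 of them PPAR targets. Among these targets it was below 0 for *Acadvl* (-0.63, adjusted p = 0.00165), *Acsl5* (-0.91, adjusted p = 2.46e-05), *Dbi* (-0.99, adjusted p = 4.80e-05), *Fads2* (-0.78, adjusted p = 3.50e-04), *Fgf21* (-1.21, adjusted p = 5.77e-04) and *Retsat* (-1.08, adjusted p = 0.00222). It was above 0 for *Aqp3* (0.93, adjusted p = 6.99e-04), *Hilpda* (1.16, adjusted p = 0.00593) and *Txnip* (0.54, adjusted p = 0.0475). Among relatives, partners, coregulators and other genes, it was below 0 for *Pprc1* (-1.02, adjusted p = 4.41e-04) and *Sgk1* (-1.11, adjusted p = 2.08e-05), and above 0 for *Bnip3* (1.31), *Cd68* (1.63), *Egln3* (1.09), *Lpin1* (1.03), *Med1* (0.53), *Nr3c1* (0.49), *Pdk1* (0.85), *Pdk2* (0.45), *Pdp1* (0.55), *Plin3* (0.80) and *Rxrb* (0.29), with adjusted p from 2.95e-04 to 0.0361. It also passed for *Acadl* (-0.55, adjusted p = 0.00382), *Me1* (-0.51, adjusted p = 0.00247) and *Vldlr* (-0.34, adjusted p = 0.0473), targets named for the comparisons of copper. Among the markers other than *Cd68*, it was below 0 for *Krt8* (-0.80), *Krt18* (-0.51), *Vim* (-0.70), *Col3a1* (-0.90) and *Spp1* (-0.55). It was above 0 for the endothelial markers *Pecam1* (1.25) and *Vwf* (0.72). Adjusted p of these markers ran from 3.15e-04 to 0.0274. These are values of limma's interaction term on log2(FPKM + 1), with 3 libraries in each of 4 groups. Genes named for a difference were picked by values that enter this term, so their p-values are not independent of the choice.

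For *Angptl4* the same quantity was -2.22. Every library of group D was above every library of group A, and every library of C was below every library of B. The difference was not tested, since the rise in group D chose the gene.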

How the results depend on the processing

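*Angptl4* in B vs. A was between -2.01 and -0.42 over 20 alternatives, and between -1.64 and -1.44 without single libraries. In C vs. B it was -0.26, -0.32 with a pseudocount of 0.1, -0.26 with the replicate block (adjusted p = 0.0358, past the threshold) and -0.31 to -0.17 without single libraries. Replicate numbers were not taken to pair the libraries, because nothing in the labels says that they mark a batch. Deviations from the group means correlated more between equal numbers (mean r 0.125, -0.171 to 0.579, 11 of 18 pairs over 0.1) than between others (mean r -0.059, 7 of 36 over 0.1). Whether the numbers mark a shared batch was not tested. The block changed only 2 other calls of named genes, *Ankrd37* in D vs. A (-0.80, adjusted p = 0.0483) and *Pdp1* in C vs. B (0.31, adjusted p = 0.0542). Calls in D vs. A were kept in 7 of 20 alternatives for *Acadvl*, 9 of 20 for *Acsl3*, 11 of 20 for *Scd2* and *Lpin1*, 11 of 19 for *Pltp*, 12 of 19 for *Acsl1* and 12 of 20 for *Plin3*, and *Pdp1* in C vs. B in 7 of 19.

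*Pdk4* in C vs. B changed sign to 0.01 in TPM and ran from -0.34 to 0.25 without single libraries. *Plin2* changed sign to -0.26 in TPM (B vs. A) and to 0.86 with median-ratio scaling (C vs. D), and *Rxra* with the latter to 0.38 (B vs. A) and 0.41 (C vs. D), as did *Ncoa3* (0.73), *Pdp1* (0.04) and *Pprc1* (0.07) in B vs. A. The PPAR targets higher in D vs. A numbered 6, 3 with no filter and 2 to 8 without single libraries. Those lower numbered 7, 3 with a pseudocount of 0.1, 4 at a minimum mean of 5, 3 with median-ratio scaling and 4 to 8 without single libraries. In C vs. B those higher numbered 8, and 5 at a minimum mean of 5, where fewer genes were tested.

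Over all genes, D vs. A gave 1114 higher (688 to 1430 without single libraries, lowest without D3) and 1225 lower (579 with a pseudocount of 0.1, 591 at a minimum mean of 5, 696 with median-ratio scaling, 732 to 1575 without single libraries, lowest without D3). B vs. A gave 2138 higher (3837 with no filter, 4539 with median-ratio scaling, 5038 with limma-voom and no filter) and 7639 lower (4689 at a minimum mean of 5, 4781 with median-ratio scaling). C vs. D gave 2218 higher (4694, 4454 and 5941 under the same settings) and 7589 lower (4734 and 4968). For the settings that kept the same genes and libraries, the cause was not tested. Depth limits *Ppara*, *Pparg* and *Ppargc1a*, with at most 26 reads in a library.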

Other observations

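*Pdk4* was 1 of 26 genes with no reads in the 6 libraries of groups A and D and at least 100 reads in each of the 6 libraries of groups B and C, out of 4668 genes without reads in A and D. Its neighbour on one side in RefSeq's order, *Asb4*, went from a mean of 0.00251 FPKM in A and 0.0218 in D to 0.508 in B and 0.760 in C, and the neighbour on the other side, *Dync1i1*, had no reads in A, B and D and a mean of 0.00396 in C. The neighbours of *Angptl4* did not show its range. *Rab11b* had means of 13.2 FPKM in A, 16.6 in D, 12.6 in B and 15.1 in C, and *Kank3* was at 0.305, 0.118, 0.0122 and 0.0120. *Ppard*, which rose with Cu/ES, lies between *Def6* (19.6 FPKM in A, 0.904 in B) and *Fance* (11.5 in A, 0.835 in B), both of which had lower means with Cu/ES. These neighbours were looked up after the values of the 8 genes had been seen, and their differences were not tested here.

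*Cd68*, a lysosomal membrane protein counted among the macrophage markers, had means of 92.2 FPKM in A, 33.0 in D, 27.2 in B and 31.2 in C. Its D vs. A difference of -1.46 (adjusted p = 1.79e-04) was past both thresholds, and it was named after its values were seen.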
